A study of Mus musculus with 15 samples.

Results

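The MYC family, the G1 cyclins and their inhibitors were followed in mouse cells on the way from embryonic stem cells to primordial germ cell-like cells. The group holds 10 genes of 55536 in the count table, listed by name and matched through their Ensembl identifiers: Myc, Mycn and Mycl, the D-type cyclins Ccnd1, Ccnd2 and Ccnd3, the E-type cyclins Ccne1 and Ccne2, and the inhibitors Cdkn1b and Cdkn2c. All 10 passed the filter on low counts, as did 18090 genes in all.

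RNA-seq counts were available for 15 samples in 5 groups of 3. Embryonic stem cells (ESC) were kept in 2i and LIF, that is 1 µM of the MEK inhibitor PD0325901, 3 µM of the GSK3 inhibitor CHIR99021 and 1000 U/ml of LIF. Epiblast-like cells (EpiLC) had spent 48 h in 20 ng/ml of Activin A, 12 ng/ml of bFGF and 1% KSR. The germ cell-like cells (PGCLC) were collected on day 2, 4 or 6 (D2PGCLC, D4PGCLC, D6PGCLC) of culture in GK15 medium, with 15% KSR and 2 µg/ml doxycycline, which switches on the transgenes. Every group carried the same doxycycline-inducible transgenes for Prdm1, Prdm14, Nanog and Tfap2c, the rtTA activator and an eGFP reporter under the control of Stella (Dppa3). The line was a clone, so the groups describe 1 genetic background, and PGCLCs were sorted as live eGFP+ cells. The paper describes no such gate for the stem cells and EpiLCs. The labels do not say that replicates were separate cultures, so p-values measure the spread between these samples, which may be technical.

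MYC proteins are transcription factors that bind DNA with their partner MAX and are known for driving ribosome production, metabolism and growth. D-type cyclins activate CDK4 and CDK6 early in G1, which begin to phosphorylate the retinoblastoma protein RB, and E-type cyclins activate CDK2, which completes this step and releases E2F factors to switch on the genes of S phase. The inhibitor p27, encoded by Cdkn1b, holds back mainly the CDK2 complexes, while p18INK4C, encoded by Cdkn2c, binds CDK4 and CDK6. Mouse embryonic stem cells are known for a short G1 phase.

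Total counts ranged from 22555021 to 42725681 per sample. The first replicate of D6PGCLC stood apart, with 18061 genes detected at a total of 34476646 counts, against 21103 to 24343 genes in the other 14 samples. Where leaving it out changes a call given below, or a count of called genes in a list, that is said. Shares of all tested genes include it, and those of the day 6 comparisons without it are given once. Levels below are TMM-normalized CPM, counts scaled to the size of the library, and a log2 fold change was called where the adjusted p of edgeR's quasi-likelihood test, over all genes tested, was under 0.05.

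The labelled cell types were checked against markers. The summed level of the naive markers Klf4, Zfp42, Esrrb, Tbx3 and Klf2 was 1711, 1687 and 1698 CPM in ESC and 335, 334 and 335 CPM in EpiLC, and 888 to 1296 CPM in the PGCLC samples, which lay between them. This did not hold for each gene. From EpiLC to D2PGCLC 4 rose and 1 fell (27.2% and 26% of all tested genes), the latter being Klf4 at a log2 fold change of -1.44. The EpiLC markers Fgf5, Otx2, Pou3f1 and Dnmt3b summed to 1824, 1966 and 1942 CPM in EpiLC, against 135 to 142 CPM in ESC and 40.3 to 69.1 CPM in the PGCLC samples. Dnmt3b made up most of this sum in every sample. In D6PGCLC against ESC, 3 of the 4 were higher and 1 lower (27.7% and 26% of all tested genes), the lower being Dnmt3b at a log2 fold change of -1.47. Of the 7 PGCLC markers, 5 rose and 2 fell from ESC to EpiLC (26.3% and 26.2% of all tested genes). From EpiLC to D2PGCLC 6 rose and 0 fell (27.2% and 26%). Among them, Itgb3 had a mean of 3.59 CPM in EpiLC and 125 CPM in D2PGCLC, and Nanos3 1.26 and 14.8 CPM. In D6PGCLC against EpiLC 5 were higher and 2 lower (30.2% and 27.2%), the lower being Prdm14 (-0.43) and Prdm1 (-0.26). Prdm1 was not called without D6PGCLC replicate 1 (-0.27). From day 2 to day 6, 5 of the 7 PGCLC markers fell and 0 rose (18.2% and 19.5% of all tested genes), among them Nanos3, to a mean of 7.33 CPM, and Dnd1, with a log2 fold change of -1.02. Dppa3 rose from EpiLC to D2PGCLC, from a mean of 85.2 to 452 CPM (log2 fold change 2.41), but the sort used its reporter, and counts of Prdm1, Prdm14 and Tfap2c do not separate the transgenes from the native genes.

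Markers of other cell types were summed in the same way. The endoderm list (Gata4, Gata6, Sox17, Foxa2, Afp, Ttr) summed to 1.16, 1.15 and 0.690 CPM in D2PGCLC, 3.52, 4.10 and 3.41 CPM in D4PGCLC and 16.9, 9.09 and 11.6 CPM in D6PGCLC, and 3 of its 4 tested genes rose between days 2 and 6 (19.5% of all tested genes). Its most abundant gene over all samples was Gata6, at 14.1, 5.66 and 7.99 CPM on day 6. Ttr, also of this list, had 0 counts in every sample, which at 3 counts allows 0.0702 to 0.133 CPM, counting error only. The mean of Afp did not exceed 0.0683 CPM in any group. The mesoderm list (T, Mixl1, Mesp1, Hand1, Foxf1, Kdr) summed to 2.88, 3.15 and 1.68 CPM on day 2, 3.94, 6.09 and 4.58 CPM on day 4 and 13.8, 17.5 and 11.7 CPM on day 6, of which Hand1 made up 13.4, 15.8 and 10.0 CPM, with Mesp1 and Foxf1 below the filter. Hand1 rose by 3.40 from day 2 to day 6. Its sum was 17.4 to 18.3 CPM in ESC, where T had a mean of 14.8 CPM, and day 6 against ESC gave -8.99 for T, which was called (-9.71 without D6PGCLC replicate 2). The trophoblast list (Cdx2, Eomes, Elf5, Krt7, Tpbpa) ranged from 11.6 to 33.5 CPM over all samples, led by Eomes, with Tpbpa at 0 counts throughout. The fibroblast list (Col1a1, Col1a2, Col3a1, Thy1, Pdgfrb) was highest in EpiLC, at 19.9 to 21.6 CPM. The part of these genes in the results below was not tested. In bulk samples, fewer cells of a type and less RNA per cell cannot be told apart.

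Promoter sequence was looked up because several of the genes moved together. The promoter table used, taken from RefSeq (GRCm38.p6), held 8 promoters, from 250 bases before to 50 after the start, for 6 of the 10 genes, namely Mycn, Mycl, Ccnd3, Ccne1, Cdkn1b and Cdkn2c. Myc, Ccnd1, Ccnd2 and Ccne2 were not in that table. The words TTTGGCGC and TTTCGCGC, which E2F factors are known to bind, were searched on both strands, as was the E-box word CACGTG of MYC and its relatives. An E2F word was in 1 of the 8 promoters, that of Mycn, and in 0.813% of all 32851 promoters. The further E2F words TTTCCCGC and TTTGCCGC, also searched on both strands, were in 0 of the 8 and in 1.49% of all promoters. CACGTG was in 1 of the 8, after a start of Cdkn2c, and in 7.15% of all. In the Mycn promoter the E2F words began 183, 179 and 168 bases before the start, the first pair overlapping as a forward and a reverse match. Such a match is a description of the letters and no evidence of a bound factor. The stretches shown are those outside annotated exons for Mycn and Ccne1, which both rose from ESC to EpiLC, and for the 2 starts of Ccnd3, whose transcripts the counts do not separate. That of Mycl, which rose as well and whose promoter held no searched word, is not shown. Capitals mark E2F words.
Mycn, chr12:12941915-12942086, minus strand: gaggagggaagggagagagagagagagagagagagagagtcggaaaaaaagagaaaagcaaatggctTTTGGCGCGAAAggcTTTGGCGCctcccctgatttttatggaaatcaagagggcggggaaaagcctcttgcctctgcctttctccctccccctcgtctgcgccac
Ccne1, chr7:38107535-38107740, minus strand: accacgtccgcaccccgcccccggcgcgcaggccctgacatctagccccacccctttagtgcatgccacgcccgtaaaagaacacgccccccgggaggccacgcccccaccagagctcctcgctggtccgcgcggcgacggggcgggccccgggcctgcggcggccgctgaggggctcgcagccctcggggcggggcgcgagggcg
Ccnd3 upstream start, chr17:47504801-47505050, plus strand: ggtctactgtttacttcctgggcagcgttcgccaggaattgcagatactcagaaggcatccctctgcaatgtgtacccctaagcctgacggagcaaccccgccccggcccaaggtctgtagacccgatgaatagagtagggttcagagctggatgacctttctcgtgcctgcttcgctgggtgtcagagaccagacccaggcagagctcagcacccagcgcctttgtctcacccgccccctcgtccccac
Ccnd3 downstream start, chr17:47593217-47593435, plus strand: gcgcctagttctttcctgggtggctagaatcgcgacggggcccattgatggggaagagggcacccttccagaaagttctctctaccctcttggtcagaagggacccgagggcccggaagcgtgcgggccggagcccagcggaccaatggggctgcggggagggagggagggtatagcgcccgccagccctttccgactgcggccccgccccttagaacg

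Myc fell at each step from EpiLC to D6PGCLC. Its level was 23.5, 22.1 and 20.7 CPM in ESC and 39.9, 37.0 and 32.7 CPM in EpiLC. It was 15.2, 14.1 and 14.1 CPM in D2PGCLC, 5.67, 9.46 and 4.84 CPM in D4PGCLC and 0.920, 3.99 and 1.39 CPM in D6PGCLC, where it rested on 35 to 181 counts. The 5 groups did not overlap, in the order EpiLC, ESC, D2PGCLC, D4PGCLC, D6PGCLC, and replicate 2 was the highest on days 4 and 6. From EpiLC to D2PGCLC Myc changed by a log2 fold change of -1.34 (SE 0.30, adjusted p = 0.00091), and from D4PGCLC to D6PGCLC by -1.63 (SE 0.34, adjusted p = 0.00426), a step that missed the threshold in a fit of these 2 groups alone (adjusted p = 0.0625). Day 6 was 17.0-fold below EpiLC, a log2 fold change of -4.09 (SE 0.34, adjusted p = 9.86e-09), and lay below ESC at -3.36 (SE 0.34, adjusted p = 1.31e-07).

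Single samples weighed on the Myc values. Without D6PGCLC replicate 1, the log2 fold changes of day 6 were -1.27 against day 4, -3.72 against EpiLC and -2.99 against ESC. Without D6PGCLC replicate 2 they were -2.54, -4.99 and -4.26, and all of these were called. The rise from ESC to EpiLC, 0.73 (SE 0.29, adjusted p = 0.0443), was lost on leaving out any ESC or EpiLC sample, or D2PGCLC replicate 1 or 3, with adjusted p from 0.0503 to 0.117. DESeq2 did not call it either (adjusted p = 0.133). The fall from day 2 to day 4, -1.12 (SE 0.31, adjusted p = 0.0236), was lost without D2PGCLC replicate 1 (adjusted p = 0.0743) or 3 (0.0504) and without D4PGCLC replicate 1 (0.0688) or 3 (0.108).

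Mycn, the paralog best known from the early embryo and neural progenitors, rose in EpiLC and then declined slowly. It stood at 76.1, 74.3 and 74.1 CPM in ESC, 207, 201 and 198 CPM in EpiLC and 194, 181 and 202 CPM in D2PGCLC. Later samples held 136, 153 and 158 CPM (D4PGCLC) and 105, 90.6 and 106 CPM (D6PGCLC). EpiLC and D2PGCLC overlapped, and every other pair of neighbours in the order of levels was apart, with ESC the lowest. The rise from ESC to EpiLC was 2.70-fold (log2 fold change 1.43, SE 0.08, adjusted p = 3.55e-11). The step to D2PGCLC was -0.07 (SE 0.08, adjusted p = 0.469) and was not called, whereas the later steps, -0.37 to day 4 (SE 0.08, adjusted p = 0.00508) and -0.57 to day 6 (SE 0.08, adjusted p = 0.000161), were. Day 6 remained above ESC by 0.42 (SE 0.08, adjusted p = 0.000177). Without D6PGCLC replicate 1 the last 2 values were -0.60 and 0.41, both called.

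Mycl, the remaining paralog, was highest in EpiLC. Its levels were 13.9 CPM in each ESC sample and 37.5, 34.7 and 38.1 CPM in EpiLC. PGCLC samples held 6.44, 11.1 and 3.57 CPM on day 2, 6.55, 11.5 and 6.56 CPM on day 4 and 7.15, 11.1 and 10.2 CPM on day 6. The days overlapped one another and lay below ESC and EpiLC, with replicate 2 the highest on each day. Mycl rose by 1.40 from ESC to EpiLC (SE 0.28, adjusted p = 0.000308) and changed by -2.39 from EpiLC to D2PGCLC (SE 0.29, adjusted p = 1.26e-06). Between the PGCLC days no difference was called, but day 6 against day 2, 0.44 (SE 0.28, adjusted p = 0.239), was called without D2PGCLC replicate 2 (0.92, adjusted p = 0.0109) and with no filter on low counts (adjusted p = 0.0359). Day 6 against ESC, -0.55 (SE 0.28, adjusted p = 0.106), was called without D2PGCLC replicate 2 (adjusted p = 0.0417) or 3 (0.0427), in a fit of these 2 groups alone (0.0171) and with no filter (0.00327). Day 6 against EpiLC gave -1.95 (SE 0.28, adjusted p = 8.43e-06), and -1.77 without D6PGCLC replicate 1.

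Per kb of exon, which allows genes to be compared, Mycn led the family in all 5 groups. Its share of the summed MYC family level was 66.3% ± 0.699 (SD, n = 3) in ESC, 73.1% ± 0.652 in EpiLC, 89.2% ± 1.78 in D2PGCLC, 91.1% ± 2.74 in D4PGCLC and 90.6% ± 3.61 in D6PGCLC (89.0% without replicate 1). The share of Myc went from 23.7% ± 0.910 in ESC to 2.36% ± 1.98 in D6PGCLC (3.04% without replicate 1 and 1.23% without replicate 2). The summed level was 34.3 ± 0.814 CPM per kb in ESC, 83.9 ± 2.75 in EpiLC, 65.5 ± 2.22 in D2PGCLC, 49.7 ± 4.11 in D4PGCLC and 33.6 ± 1.73 in D6PGCLC. ESC and D6PGCLC thus overlapped in the family total while differing in its makeup. Exon length was that of all annotated exons of a gene merged, so a gene with many alternative exons appears lower per kb.

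**Figure D1:**
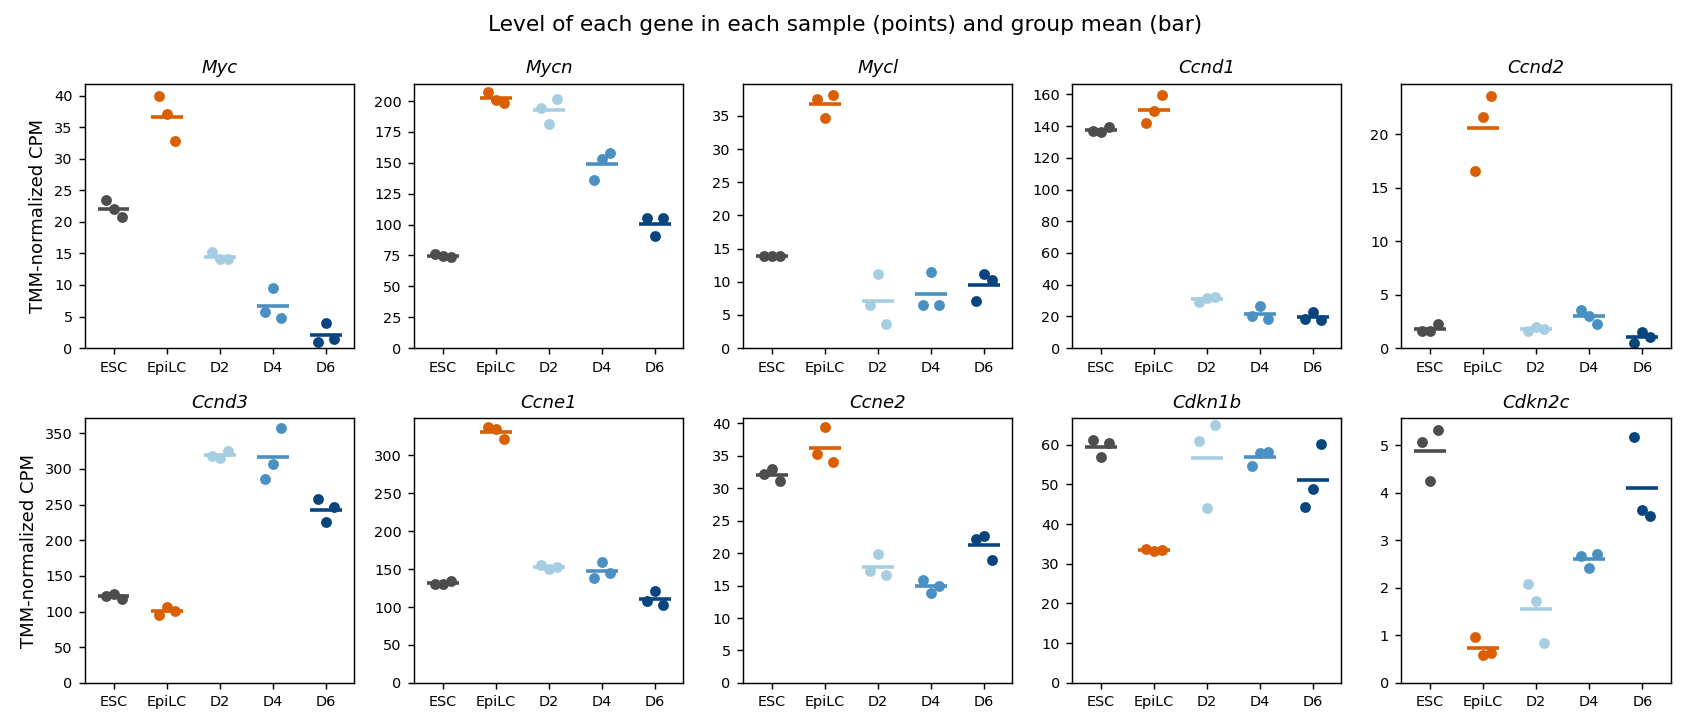
Level of each of the 10 genes (TMM-normalized CPM, linear axis from 0) in the 3 samples of ESC, EpiLC and PGCLC days 2, 4 and 6; points are samples and bars are group means. Ccnd3 is at 315 CPM or more in the D2PGCLC samples and at 124 CPM or less in ESC and EpiLC, while Ccnd1 goes the other way.

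Among the D-type cyclins, Ccnd1 fell and Ccnd3 rose at the step from EpiLC to D2PGCLC. Ccnd1, the D-type cyclin known to respond to mitogens, was at 137, 136 and 139 CPM in ESC and 142, 149 and 160 CPM in EpiLC. It was at 29.0, 31.6 and 32.0 CPM in D2PGCLC, 20.6, 26.5 and 18.4 CPM in D4PGCLC and 18.4, 22.9 and 17.5 CPM in D6PGCLC. Every ESC and EpiLC sample lay above every PGCLC sample, and days 4 and 6 overlapped. Ccnd1 was 4.87-fold lower in D2PGCLC than in EpiLC (log2 fold change -2.28, SE 0.12, adjusted p = 1.75e-11) and changed by -0.50 from day 2 to day 4 (SE 0.12, adjusted p = 0.00949). The second of these was lost without D4PGCLC replicate 3 (-0.39, adjusted p = 0.0572). ESC and EpiLC did not overlap, yet 0.13 (SE 0.11, adjusted p = 0.348) was not called. Against ESC, day 6 stood at -2.80 (SE 0.12, adjusted p = 1.56e-12), and at -2.74 without D6PGCLC replicate 1.

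Ccnd3, the D-type cyclin known for its role in developing blood cells, was at 121, 124 and 118 CPM in ESC and 95.7, 106 and 101 CPM in EpiLC. It was at 318, 315 and 325 CPM in D2PGCLC, 286, 307 and 358 CPM in D4PGCLC and 257, 225 and 247 CPM in D6PGCLC. All PGCLC samples exceeded all others, days 2 and 4 overlapped, and day 6 was lower than both. The rise from EpiLC to D2PGCLC was 3.17-fold (log2 fold change 1.66, SE 0.08, adjusted p = 1.35e-11). The step from day 4 to day 6 was -0.38 (SE 0.08, adjusted p = 0.0052), or -0.43 without D6PGCLC replicate 1, and it missed the threshold in a fit of these 2 groups alone (adjusted p = 0.0695). The small difference of EpiLC from ESC, -0.27 (SE 0.08, adjusted p = 0.0112), was lost without EpiLC replicate 1 (adjusted p = 0.0674). Day 6 was 2.00-fold above ESC (1.00, SE 0.08, adjusted p = 9.59e-09), and 0.98 without D6PGCLC replicate 1.

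Ccnd2, which in other tissues takes part in the growth of progenitor cells, was low outside EpiLC. It was at 1.57, 1.58 and 2.28 CPM in ESC and 16.6, 21.7 and 23.6 CPM in EpiLC. On days 2, 4 and 6 it was at 1.62, 1.94 and 1.83 CPM, 3.61, 2.98 and 2.29 CPM, and 0.499, 1.54 and 1.05 CPM. The EpiLC samples stood apart from all others, and the lowest sample rested on 19 counts. Ccnd2 was 11.3-fold higher in EpiLC than in ESC (log2 fold change 3.50, SE 0.29, adjusted p = 9.39e-09) and changed by -3.52 to D2PGCLC (SE 0.29, adjusted p = 9e-09). The step from day 4 to day 6, -1.50 (SE 0.30, adjusted p = 0.00312), was -1.17 without D6PGCLC replicate 1 and missed the threshold in a fit of these 2 groups alone (adjusted p = 0.051). The difference of day 4 from day 2, 0.72 (SE 0.29, adjusted p = 0.116), was called only without D6PGCLC replicate 1 (adjusted p = 0.0452), and day 6 against day 2, -0.78 (SE 0.31, adjusted p = 0.053), without D4PGCLC replicate 3 (0.0492) or D6PGCLC replicate 2 (-1.22, adjusted p = 0.00697). DESeq2 (adjusted p = 0.0344) and the fit with no filter (0.0205) called that difference too. Day 6 against ESC, -0.80 (SE 0.31, adjusted p = 0.0371), was lost without D6PGCLC replicate 1 (-0.46, adjusted p = 0.175) or 3 (0.0764), ESC replicate 3 (-0.58, adjusted p = 0.189), or EpiLC replicate 2 (0.0532) or 3 (0.0521), and in a fit of these 2 groups alone (-0.78, adjusted p = 0.162).

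As a share of the summed D-type cyclin level per kb, Ccnd1 made up 67.5% ± 0.734 in ESC and 70.0% ± 1.02 in EpiLC, then 15.2% ± 0.668, 11.4% ± 2.53 and 13.1% ± 2.41 on days 2, 4 and 6. Ccnd3 made up 32.0% ± 0.825 and 25.2% ± 1.09 in ESC and EpiLC, and 84.4% ± 0.703, 87.8% ± 2.68 and 86.6% ± 2.57 on the 3 days (85.8% on day 6 without replicate 1). Ccnd2 reached 4.78% ± 0.591 in EpiLC and stayed under 1.03% in every sample of the other groups. The summed level was 43.2 ± 0.127 CPM per kb in ESC, 45.6 ± 2.58 in EpiLC, 43.1 ± 0.741 in D2PGCLC, 41.1 ± 3.77 in D4PGCLC and 32.0 ± 1.31 in D6PGCLC. The first 4 of these groups overlapped in range, and D6PGCLC lay below all of them. The merged exon lengths used were 4709 bases for Ccnd1, 9409 for Ccnd2 and 8775 for Ccnd3. A shorter length for Ccnd3 would raise its share and its weight in the sum. Which gene leads in ESC and EpiLC, and the order of the group totals, therefore depend on these lengths. Exons of Ccnd1 overlap LTO1 over 1100 bases and those of Ccnd3 overlap Bysl over 361 bases, each on the other strand. The library kit keeps the strand of the RNA, but whether the counting used it is not given in the labels or the paper, so some uncertainty stays in the values of Ccnd1 and Ccnd3. Bysl had 2663 to 4932 counts and LTO1 272 to 669.

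**Figure D2:**
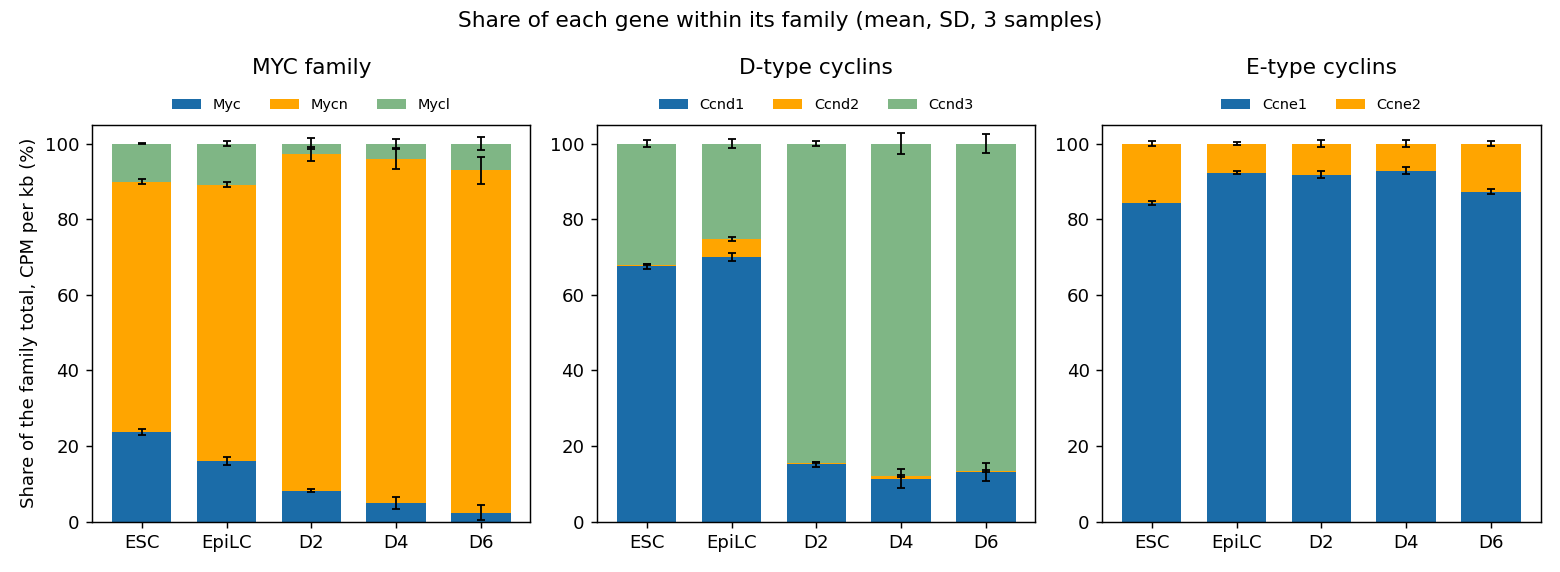
Share of each gene in the summed level of its family (percent of CPM per kb of exon) by group, stacked; bar segments are means of 3 samples and lines are SDs. Ccnd1 holds 70.0% of the D-type total in EpiLC and Ccnd3 84.4% in D2PGCLC, while Mycn and Ccne1 lead their families in all 5 groups. Shares depend on the exon length used, that of all annotated exons of a gene merged.

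The E-type cyclin Ccne1 peaked in EpiLC. It was at 130, 131 and 134 CPM in ESC, 337, 335 and 322 CPM in EpiLC, and 156, 150 and 153 CPM in D2PGCLC. Days 4 and 6 held 139, 160 and 144 CPM and 109, 121 and 103 CPM. EpiLC lay far above the rest, days 2 and 4 overlapped, and day 6 was the lowest group. The rise from ESC to EpiLC was 2.51-fold (log2 fold change 1.33, SE 0.08, adjusted p = 4.13e-11), and the step to D2PGCLC was -1.11 (SE 0.07, adjusted p = 5.1e-10). From day 4 to day 6 it changed by -0.41 (SE 0.07, adjusted p = 0.00141), or -0.40 without D6PGCLC replicate 1. Day 6 against ESC gave -0.25 (SE 0.07, adjusted p = 0.00803), which was -0.22 without D6PGCLC replicate 1 (adjusted p = 0.0425) and was lost without D6PGCLC replicate 3 (-0.19, adjusted p = 0.0716).

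Ccne2 is its paralog. Levels were 32.2, 33.0 and 31.1 CPM in ESC and 35.4, 39.5 and 34.0 CPM in EpiLC. They were 17.2, 19.9 and 16.6 CPM on day 2, 15.9, 13.8 and 14.9 CPM on day 4 and 22.3, 22.6 and 19.0 CPM on day 6. All ESC and EpiLC samples exceeded all PGCLC samples, and days 2 and 6 overlapped. Ccne2 changed by -1.02 from EpiLC to D2PGCLC (SE 0.11, adjusted p = 2.52e-07) and rose by 0.52 from day 4 to day 6 (SE 0.11, adjusted p = 0.00451), where Ccne1 fell. Without D6PGCLC replicate 1 that rise was 0.49 (adjusted p = 0.02). The difference between ESC and EpiLC, 0.18 (SE 0.11, adjusted p = 0.174), was not called. Day 6 against day 2, 0.25 (SE 0.11, adjusted p = 0.0751), was called without D2PGCLC replicate 2 (0.33, adjusted p = 0.0415) or D6PGCLC replicate 3 (0.32, adjusted p = 0.0406). Its exons overlap those of Ints8 on the other strand over 609 bases, and Ints8 had 2029 to 3552 counts against 458 to 1201 for Ccne2, so these values are uncertain too. Ccne1 made up 84.3% ± 0.565 of the E-type level per kb in ESC, 92.3% ± 0.467 in EpiLC, 91.8% ± 0.846 in D2PGCLC, 92.8% ± 0.929 in D4PGCLC and 87.2% ± 0.635 in D6PGCLC (87.6% without replicate 1). EpiLC and days 2 and 4 overlapped in this share, with ESC and day 6 below them. The summed level was 58.7 ± 0.554 CPM per kb in ESC, 135 ± 3.73 in EpiLC, 62.6 ± 0.783 in D2PGCLC, 59.7 ± 3.77 in D4PGCLC and 47.7 ± 3.84 in D6PGCLC.

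Both inhibitors had their lowest mean in EpiLC. Cdkn1b was at 61.1, 56.8 and 60.5 CPM in ESC and 33.6, 33.1 and 33.4 CPM in EpiLC. Levels of 61.0, 44.0 and 65.0 CPM on day 2, 54.7, 57.9 and 58.2 CPM on day 4 and 44.3, 48.9 and 60.1 CPM on day 6 followed. EpiLC was below every other sample, and the remaining 4 groups overlapped with their neighbours in the order of levels. Cdkn1b was 1.78-fold lower in EpiLC than in ESC (log2 fold change -0.83, SE 0.12, adjusted p = 1.67e-05) and 1.70-fold higher in D2PGCLC than in EpiLC (0.77, SE 0.12, adjusted p = 4.25e-05). Between the PGCLC days no difference was called, but day 6 against day 2, -0.15 (SE 0.12, adjusted p = 0.354), was called without D2PGCLC replicate 2 (-0.31, adjusted p = 0.0351). Day 6 against ESC, -0.22 (SE 0.12, adjusted p = 0.14), was called without D6PGCLC replicate 3 (-0.34, adjusted p = 0.0349). Day 6 exceeded EpiLC by 0.61 (SE 0.12, adjusted p = 0.000337), or 0.71 without D6PGCLC replicate 1. The amount of p27 is known to be set largely by protein degradation, which counts of RNA do not show.

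Cdkn2c was low throughout, with its lowest mean in EpiLC. It was at 5.07, 4.25 and 5.33 CPM in ESC and 0.957, 0.592 and 0.624 CPM in EpiLC, the last on 17 to 25 counts. Days 2, 4 and 6 held 2.08, 1.72 and 0.840 CPM, 2.67, 2.41 and 2.72 CPM, and 5.18, 3.63 and 3.51 CPM. D2PGCLC overlapped with EpiLC, and D6PGCLC with ESC. The fall from ESC to EpiLC was 6.76-fold (log2 fold change -2.76, SE 0.32, adjusted p = 8.85e-07). A rise of 1.10 from EpiLC to D2PGCLC (SE 0.33, adjusted p = 0.00949) was lost without D2PGCLC replicate 1 (0.82, adjusted p = 0.0683). From day 2 to day 6 Cdkn2c rose by 1.41 (SE 0.30, adjusted p = 0.00107), and by 1.21 without D6PGCLC replicate 1 (adjusted p = 0.00525), although neither step between these days was called by itself.

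**Figure D3:**
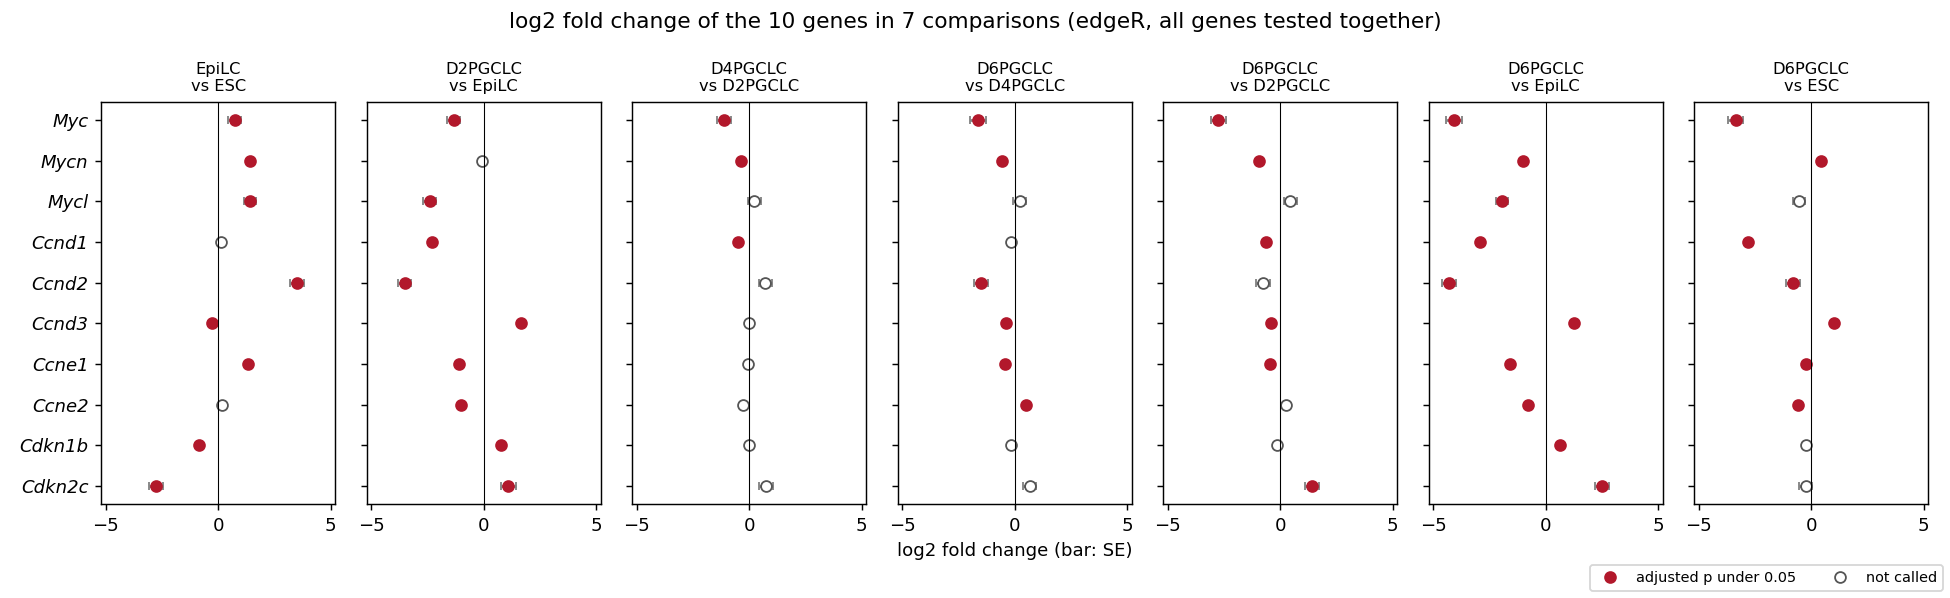
Fitted log2 fold change of the 10 genes in the 7 comparisons (horizontal axis, with SE as bars); filled points have an adjusted p under 0.05 over all genes tested and open points do not. Ccnd2 spans 3.50 in EpiLC against ESC to -4.30 in D6PGCLC against EpiLC, and Mycn against EpiLC is at -0.07 in D2PGCLC.

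From ESC to EpiLC, 5 of the 10 genes rose and 3 fell, where 26.3% of all 18090 tested genes rose and 26.2% fell. The risers were Myc, Mycn, Mycl, Ccnd2 and Ccne1, and the genes that fell were Ccnd3, Cdkn1b and Cdkn2c. From EpiLC to D2PGCLC 3 rose (Ccnd3, Cdkn1b, Cdkn2c) and 6 fell, against 27.2% and 26% of all genes, so each of the 3 that had fallen rose at the next step. Between days 2 and 4 the count was 0 higher and 3 lower (Myc, Mycn, Ccnd1), with 7.26% and 4.6% of all genes. The number lower was 1 without D4PGCLC replicate 3, and a fit without D6PGCLC replicate 1 added Ccnd2 as higher.

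Between days 4 and 6 1 gene rose (Ccne2) and 5 fell (Myc, Mycn, Ccnd2, Ccnd3, Ccne1), with 6.03% and 6.82% of all genes. Without D6PGCLC replicate 1 the total of called genes was again 6, while the shares of all genes were 3.91% and 3.7%. Fitted on these 2 groups alone, the total was 3. Day 6 against day 2 gave 1 higher (Cdkn2c) and 5 lower, beside 19.5% and 18.2% of all genes. The total was 6 also without D6PGCLC replicate 1, beside 17.9% and 14.4%. Against EpiLC, day 6 had 3 genes higher and 7 lower, beside 30.2% and 27.2% (29.4% and 25% without D6PGCLC replicate 1). All 10 were called whichever sample was left out. Against ESC, day 6 had 2 higher (Mycn, Ccnd3) and 5 lower, beside 27.7% and 26%. The total went from 7 to 6 without D6PGCLC replicate 1, beside 27.2% and 22.3%. Comparisons that share a group are not independent of each other.

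The median log2 fold change of the 10 genes was 0.45 in EpiLC against ESC and -1.30 in D6PGCLC against EpiLC, beside medians over all tested genes of -0.01 and 0.03. These medians describe genes chosen by name and were not tested.

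The 3 kinases that these cyclins serve were lower in D6PGCLC than in ESC, where 26% of all genes were lower. Cdk4, the most abundant, had means of 423 CPM in ESC, 408 in EpiLC and 291 in D6PGCLC, and Cdk2 147, 94.7 and 75.8 CPM. Cdk6 had 62.0 CPM in ESC, 20.8 in EpiLC and 10.6 in D2PGCLC. The log2 fold changes between ESC and D6PGCLC ran from -2.51 (Cdk6) to -0.54 (Cdk4). Of the 5 further inhibitors, Cdkn1a, which encodes p21, fell from 157 CPM in ESC to 45.1 CPM in EpiLC and 16.3 CPM in D2PGCLC, then rose to 52.4 CPM in D6PGCLC. Cdkn1c, an imprinted gene that encodes p57, had 70.2 CPM in EpiLC and 2.61 CPM or less in each other group, log2 fold changes of 4.75 and -5.34 around EpiLC. Between days 2 and 6, 4 of the 5 inhibitors rose and 0 fell (19.5% and 18.2% of all genes), from Cdkn1a at 1.68 to Cdkn2d at 0.52. Without D6PGCLC replicate 1 Cdkn2d was at 0.39 and not called, nor was Cdkn2b, whose 0.78 was 0.68 in that fit, 0.63 without D2PGCLC replicate 2, 0.67 without D2PGCLC replicate 3 and 0.72 without D6PGCLC replicate 3, called in none of these. Counts of Cdkn2a, with a mean of 35.2 CPM in ESC and 18.1 CPM in D2PGCLC, do not separate its products p16 and p19ARF.

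In the list of RB, E2F and DP factors, Rb1, which encodes the main target of the D-type cyclin kinases, had means of 5.62 CPM in ESC, 12.6 in EpiLC, 31.0 in D2PGCLC and 43.3 in D6PGCLC (log2 fold change 2.95 between ESC and D6PGCLC). The related Rbl1 fell from 70.5 to 27.5 CPM at the step to EpiLC. The most abundant of the 13 genes over all samples were Tfdp1, E2f4 and Tfdp2, with 258, 171 and 60.0 CPM in ESC, and Tfdp2 rose by 1.57 in EpiLC. In D6PGCLC against EpiLC 6 of 13 were higher and 7 lower (30.2% and 27.2% of all genes). Without D6PGCLC replicate 1, E2f3 (-0.19) and E2f8 (-0.24) were not called, which left 5 lower. Of the 14 E2F target genes of S phase 8 rose from ESC to EpiLC and 0 fell (26.3% and 26.2% of all genes), the largest being Mcm2 at 0.51. Tyms, not called at 0.24, was called at 0.25 without D6PGCLC replicate 1. Of the risers, Rrm1 was not called without ESC replicate 1 (0.21) or EpiLC replicate 2 (0.19). Mcm4 was not called without ESC replicate 3 (0.21) or EpiLC replicate 2 (0.21). In D6PGCLC against EpiLC 0 rose and 14 fell (30.2% and 27.2%), down to -0.78 for Pcna, the clamp that holds DNA polymerase, with a median of -0.53 against 0.03 over all tested genes. From day 2 to day 6 0 rose and 12 fell (19.5% and 18.2%), with Orc1, a part of the origin recognition complex, lowest at -0.63. Without D6PGCLC replicate 1 it was 11 that fell, as Mcm3 was at -0.20 and not called. Without D6PGCLC replicate 3, Mcm3 (-0.17), Mcm4 (-0.22), Mcm6 (-0.20) and Rrm1 (-0.18) were not called. Of the 4 S and M phase cyclins, Ccnb1 and Ccna2 had group means of 378 to 538 and 230 to 270 CPM. Ccnb1 had a log2 fold change of -0.51 in D6PGCLC against EpiLC, which was called. Ccna1, known from meiotic germ cells, changed by -1.39 from ESC to EpiLC and rose from 0.518 CPM in EpiLC to 2.69 CPM in D6PGCLC. Its log2 fold change of day 6 against ESC was 0.98, and was 0.77 and not called without D6PGCLC replicate 2.

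Genes known to be activated by MYC were described by a list of 22, led by Npm1, Ncl and Eif4a1, with ESC means of 5426, 3844 and 2982 CPM. From ESC to EpiLC 16 rose and 1 fell, beside 26.3% and 26.2% of all genes, with a median of 0.40 against -0.01 over all tested genes. Npm1, not called at 0.18, was called at 0.19 without D6PGCLC replicate 1. Of the risers, Nop2 (0.18) and Rrp9 (0.20) were not called without ESC replicate 2, nor was Rrp9 without EpiLC replicate 2 (0.23). The gene that fell was Rrs1 at -0.30, not called without ESC replicate 1 (-0.25), ESC replicate 3 (-0.27) or EpiLC replicate 2 (-0.22). Odc1, the first enzyme of polyamine synthesis, had the largest rise at 1.21. From EpiLC to D2PGCLC 0 rose and 13 fell (27.2% and 26% of all genes), and from EpiLC to D6PGCLC 1 rose and 18 fell (30.2% and 27.2%), with medians of -0.36 and -0.71 against 0.00 and 0.03 over all tested genes. The riser was Tert, the catalytic part of telomerase, at 0.79, and the largest fall was that of Ldha, a lactate dehydrogenase, at -2.24 (SE 0.54, adjusted p = 0.00165). Its replicates lay far apart, at 170 to 610 CPM on day 6, and without D6PGCLC replicate 2 the value was -2.86. From day 2 to day 6 1 rose and 16 fell (19.5% and 18.2%), or 14 without D6PGCLC replicate 1, where Eif4e (-0.23) and Eif4a1 (-0.24) were not called. Npm1 and Ldha have near-identical processed copies in the genome, so their counts are uncertain.

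Of 10 MYC partners and antagonists, 3 rose and 1 fell in EpiLC against ESC (26.3% and 26.2% of all genes). The 1 that fell, Zbtb17 (-0.29), was not called without ESC replicate 2 or 3 or EpiLC replicate 2 or 3. Mlxip, not called at 0.29, was called at 0.30 without D6PGCLC replicate 1. In D6PGCLC against EpiLC, 2 rose and 4 fell (30.2% and 27.2%). Without D6PGCLC replicate 1, Max was at -0.19 and not called, which left 3 that fell. Max, the partner of all 3 MYC proteins, had means of 77.9 CPM in ESC, 110 in EpiLC and 90.1 in D6PGCLC. Mga, a repressor that also pairs with MAX and was the most abundant of the list, fell from 401 CPM in EpiLC to 231 CPM in D6PGCLC (-0.79). Mxd4, a MAX-binding antagonist of MYC, rose by 1.73 in EpiLC and changed by -1.48 at the next step, then rose by 1.34 from day 2 to day 6, with means of 5.67 CPM in EpiLC, 2.04 in D2PGCLC and 5.14 in D6PGCLC. Among 5 parts of the ubiquitin ligases that degrade p27, cyclin E and MYC, 4 rose and 0 fell in EpiLC against ESC (26.3% and 26.2% of all genes), and 0 rose and 3 fell in D6PGCLC against EpiLC (30.2% and 27.2%). From day 2 to day 6 0 rose and 4 fell (19.5% and 18.2%). Skp2, which recognizes p27, went on from 35.6 CPM in EpiLC to 63.9 CPM in D2PGCLC (0.84) and was at 39.0 CPM in D6PGCLC, and Cks1b, its cofactor, changed by -1.21 from EpiLC to D6PGCLC. Skp1a and Cul1, the scaffold parts, had EpiLC means of 771 and 321 CPM.

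**Figure D4:**
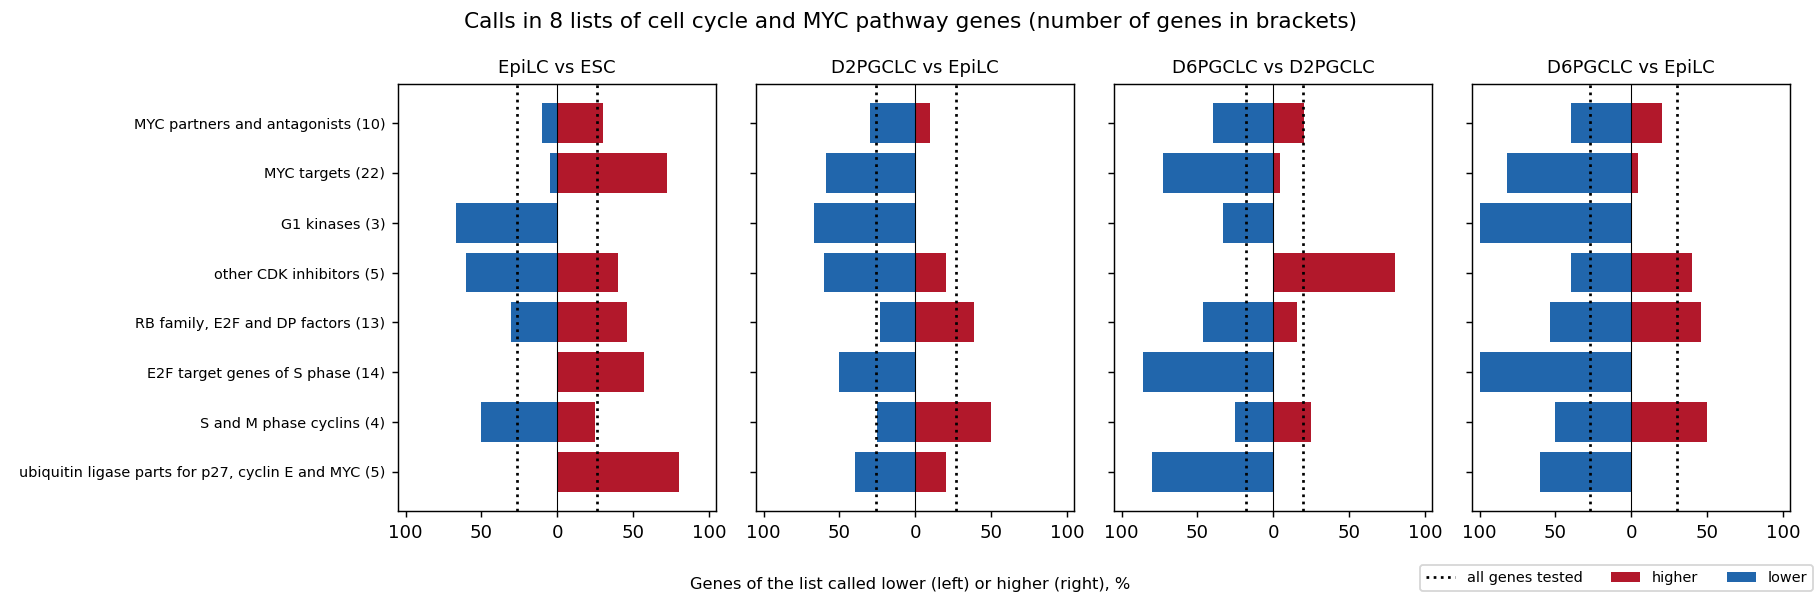
Share of each list of related genes called higher (right, red) or lower (left, blue) in 4 comparisons, in percent of its genes; dotted lines give the same share of all tested genes. Of the 22 MYC targets 16 are higher in EpiLC than in ESC, and of the 14 E2F targets 14 are lower in D6PGCLC than in EpiLC.

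For 9 of the 10 genes, those most like them in pattern were ranked by Pearson's r of log2(CPM + 1) over the 15 samples, as a description. The samples fall into 5 groups of 3 and share 1 scaling, so high values are easily reached. Myc was followed most closely by Tmem69 (r = 0.989), Ints9 and Ap1b1. Mycn was followed by E2f6 (r = 0.968), a repressor of the E2F family, and by G3bp1 and Csrnp1. For Ccnd1 these were Nom1 (r = 0.992), Ufm1 and Cyb5b, for Ccnd2 Bcl11a (r = 0.984), Mettl16 and Ubr7, and for Ccnd3 Limk2 (r = 0.993), Ifitm1 and Rad51c. Mettl16 (r = 0.983), Zbtb8a and Serbp1 led for Ccne1, and Slfn9 (r = 0.974), Cers4 and Prom1 for Ccne2. The inhibitor Cdkn1b was followed by Slc38a7 (r = 0.965), Tsc22d1 and Slc7a1, and Cdkn2c by Prrt4 (r = 0.979), Ly6g6e and Echdc2. With 4 added to CPM in place of 1, Ap1b1, Cyb5b, Ubr7, Rad51c and Prom1 were not among the 3 for their gene.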

How the data were processed

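Gene counts of 15 RNA-seq samples were used as the authors deposited them, as whole-number counts for 55536 Ensembl genes, all of which matched GENCODE M21 (GRCm38, the same assembly as mm10). The submitters' processing notes name Trim Galore, FastQC, STAR and the build mm10, without versions. The libraries kept strand, but the counting step's use of it is not given. Replicates of a group differed by more than sampling noise and were each counted as 1.

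Genes were filtered with filterByExpr (minimum count 10), scaled with TMM and tested in edgeR 4.0.16 (R 4.3.3) with the quasi-likelihood F test, in 1 fit of 5 groups. P-values were adjusted by the Benjamini-Hochberg method over 18090 genes. The SE was the log2 fold change divided by the square root of F. DESeq2 1.42.0, its size factors, no filter, a block on replicate number, fits of 2 groups, a fold cutoff and leaving out each sample were alternatives. Per-kb levels used merged exon length.

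The motif words were not part of the fixed design. Members and gene lists were chosen with earlier results of these data known. Named genes are the 10 members and, in each list, up to 3 with the highest mean CPM, those with the highest and lowest called log2 fold change in a comparison, and any below the filter. Some genes whose call changed when a sample was left out are named as well. Genes most like a member had a mean of at least 100 counts; those of Mycl and the sum of neuroectoderm markers are not reported here.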

Additional observations from a re-analysis of the deposited data

How the results depend on the processing

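The log2 fold changes of the 10 genes in 7 comparisons were recomputed under 20 alternatives, 1400 values in all. Of these, 1358 stayed on their side of the threshold, 26 were no longer called, 16 became called and 0 called values changed sign. Among the 1358, 12 values called in neither fit changed sign. The changes fell on 17 of the 70 fold changes. Adding an absolute log2 fold change above 1 to the call rule left 5 called genes of 8 in EpiLC against ESC, 1 of 3 in D4PGCLC against D2PGCLC, 2 of 6 in D6PGCLC against D4PGCLC, 2 of 6 in D6PGCLC against D2PGCLC and 3 of 7 in D6PGCLC against ESC, by the construction of the rule. In a fit of only the 2 groups, D6PGCLC against D4PGCLC had 3 called genes, with fewer samples to estimate the spread. Leaving out a sample gave 1 to 4 called genes in D4PGCLC against D2PGCLC; the cause was not tested. Under DESeq2 size factors, EpiLC levels were 1.03 times those under TMM, more than the SD of 2 of the 10 genes, and shares within a family do not depend on scaling.

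With replicate number as a block (replicate block), 7 genes were called in D6PGCLC against D2PGCLC in place of 6, Ccnd2 being added at -0.81 (adjusted p = 0.0416, against 0.053 without it), and no other call of the 10 genes changed. Same-numbered samples of different groups had a mean correlation of 0.0358 over 30 pairs, from -0.0285 to 0.208, of which 6 were over 0.1, against a mean of -0.0179 and 0 over 0.1 for 60 pairs with different numbers. As not every same-numbered pair was over 0.1, same-numbered samples are not treated as paired in the main fit. Pairing between only some of the groups was not tested. Myc on day 6, Ccnd2 outside EpiLC and Cdkn2c in EpiLC rest on low counts, down to 35, 19 and 17.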
